A study of Homo sapiens with 8 samples.

Results

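The genes that encode the TEAD transcription factors and their cofactors were examined for occupancy by those same proteins in HuCCT1, an established cell line from a human cholangiocarcinoma (cancer of the bile ducts), to ask whether the pathway binds its own genes. Peaks were taken from 5 deposited chromatin immunoprecipitation and sequencing (ChIP-seq) lists when their centre lay within 100 kb of the start of TEAD1, TEAD2, TEAD3, TEAD4, YAP1, WWTR1 (which encodes TAZ), VGLL1, VGLL3 or VGLL4 on the hg19 build. This gave 69 peaks of 51828, at 9 loci. Peaks were assigned by distance alone. A peak of a locus may therefore lie in or act on a neighbouring gene, which was not tested. The lists came from HuCCT1 chromatin precipitated with antibodies against TEAD1, TEAD4, YAP or TAZ, and from HA-YAP5SA, an HA-tagged form of YAP whose LATS-target serines are replaced by alanine. The series held 8 libraries in all; those titled Input, IgG and GFP were not used here. Each antibody or control had 1 library, so differences between lists could not be set against replicates, and the number of reads behind each list is unknown. The labels do not say how HA-YAP5SA was introduced into the cells, nor whether the other libraries came from cells that carried it.

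TEAD1 to TEAD4 bind DNA through a shared TEA domain, whose best-known recognition sequence has the core GGAATG. YAP and TAZ do not bind DNA directly and act as coactivators on TEAD factors, while the LATS kinases of the Hippo pathway hold them out of the nucleus by phosphorylation. The VGLL proteins, named after Drosophila vestigial, also bind TEAD factors without binding DNA, and VGLL4 is known as an antagonist that competes with YAP. In the liver, YAP activity is known to promote the bile duct fate and the growth of bile duct cancers.

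A peak covered the gene start at 4 of the 9 loci, TEAD1, TEAD4, YAP1 and VGLL1, and each of these starts was covered by both a TEAD1 and a TEAD4 peak. The share of all gene starts that such peaks cover was not computed here, so this count has no background to be read against. The RefSeq promoter table (build GRCh38.p14, 250 bases before to 50 bases after each start) matched 7 of the 9 genes, with 13 promoters. TEAD1 and TEAD4 were not matched. The YAP1 and VGLL1 promoters are shown because peaks covered both starts; they were searched on both strands for GGAATG and for the AP-1 motif TGANTCA, and capitals mark the matches. Both are on the plus strand and written from the upstream end, YAP1 at chr11:102110197-102110496 and VGLL1 at chrX:136531965-136532264 of GRCh38.p14.

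YAP1: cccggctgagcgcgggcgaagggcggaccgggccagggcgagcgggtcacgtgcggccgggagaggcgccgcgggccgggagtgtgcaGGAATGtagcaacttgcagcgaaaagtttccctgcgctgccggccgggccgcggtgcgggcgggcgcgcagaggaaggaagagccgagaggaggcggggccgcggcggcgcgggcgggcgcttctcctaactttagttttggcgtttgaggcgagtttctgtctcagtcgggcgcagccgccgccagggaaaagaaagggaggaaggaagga

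VGLL1: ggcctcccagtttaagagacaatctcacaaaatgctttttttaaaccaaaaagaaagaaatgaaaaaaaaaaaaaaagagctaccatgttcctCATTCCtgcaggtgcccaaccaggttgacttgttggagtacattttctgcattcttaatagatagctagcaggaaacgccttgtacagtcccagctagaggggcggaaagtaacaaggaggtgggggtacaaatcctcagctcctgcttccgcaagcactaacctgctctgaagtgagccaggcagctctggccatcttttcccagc

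The YAP1 promoter held GGAATG once on the gene's strand, with its first base 162 bp upstream of the table's start. The VGLL1 promoter held it once on the opposite strand, read as CATTCC on the gene's strand, from 157 bp upstream. None of the other 11 promoters of these genes held GGAATG, and 5 of those belong to VGLL4. That made 2 of 13 promoters, near the 14.0% of the 35116 promoters in the table that hold it on either strand. With TEAD1 and TEAD4 unmatched, whether the motif goes with covered starts was not tested. TGANTCA was in none of the 13 and in 7.71% of the table. The table's starts and the hg19 starts used for the peaks come from different builds and were not matched base by base, so a motif could not be placed inside a peak.

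TEAD1 was found at every locus. Of its 38186 peaks, 43 lay within 100 kb of the 9 starts, between 2 and 9 per locus with a median of 5. TEAD4 had 24 of its 12188 peaks there, between 1 and 7 per locus. HA-YAP5SA had 2 of its 847 peaks, at TEAD1 and at TEAD4. The antibodies against YAP and TAZ gave no peak at any of the 9 loci, out of 454 and 153 peaks. A count of 0 allows up to 3 peaks for counting error. The YAP and TAZ lists met few TEAD sites anywhere, so their absence is not particular to these loci. Over the whole lists, YAP was present at 80 of 38186 TEAD1 peaks (0.210%). TAZ was present at 0 TEAD1 peaks and at 6 of 12188 TEAD4 peaks. The nearest YAP peak was 4.73 Mb from TEAD2, and the nearest TAZ peak 2.17 Mb from TEAD1. Over 15156 windows of 200 kb tiled along chromosomes 1 to 22 and X, 67.5% held a TEAD1 peak, 38.9% a TEAD4 peak, 4.94% an HA-YAP5SA peak, 0.878% a YAP peak and 0.323% a TAZ peak. These windows include gene-poor sequence and are a loose background for gene starts.

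**Figure D1:**
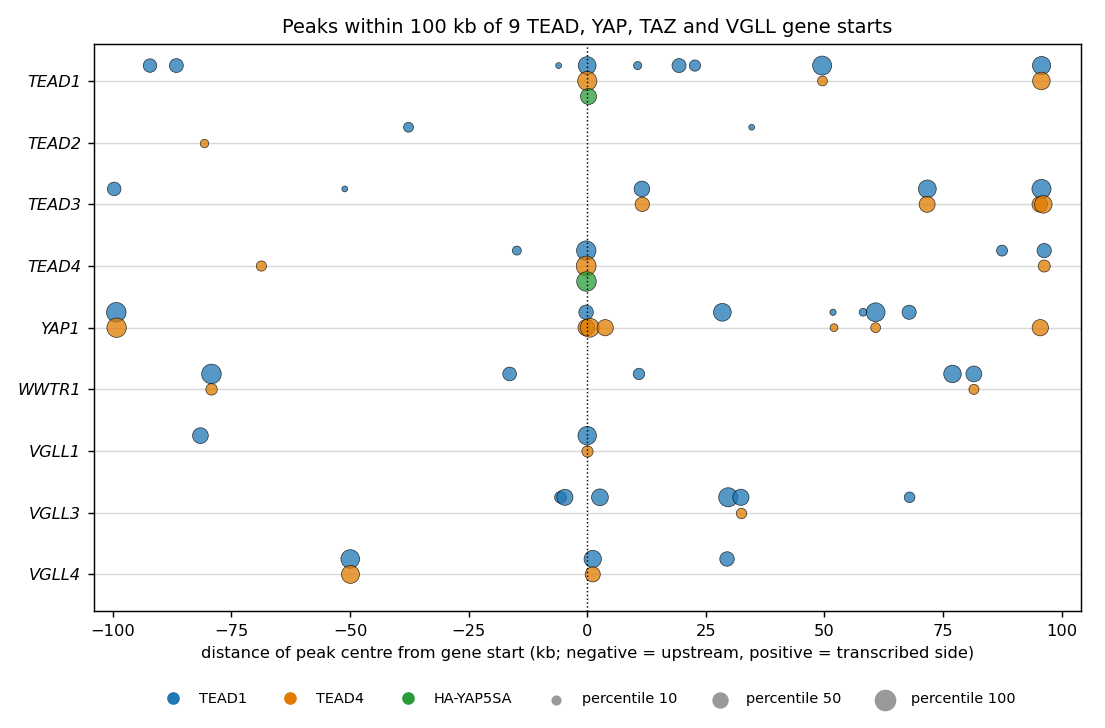
Peaks of TEAD1 (blue), TEAD4 (orange) and HA-YAP5SA (green) by the distance of their centre from each gene start in kb, negative upstream; each point is 1 peak and its size follows the percentile of its score within its own list. Both HA-YAP5SA peaks sit at the starts of TEAD1 and TEAD4, where all 3 lists coincide.

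The loci differed in the number of TEAD1 peaks. TEAD1 itself had 9, and 4.78% of the tiled windows held at least as many. YAP1 had 7 (9.98% of windows), VGLL3 had 6 (14.2%), and TEAD3 and WWTR1 had 5 each (20.1%). The remaining loci were closer to the median window, which held 2 TEAD1 peaks: TEAD4 had 4, VGLL4 had 3, and TEAD2 and VGLL1 had 2 each. For TEAD4 peaks the YAP1 locus had the most, with 7, a number that 0.805% of the windows reached. Of these 7, 3 did not overlap TEAD1. Whether they hold reads from an HA-YAP5SA sequence was not tested, and the labels do not say whether the cells of the TEAD4 library carried it. TEAD3 followed with 4 TEAD4 peaks (5.22% of windows), TEAD1 and TEAD4 had 3 each (10.4%), and TEAD2, VGLL1 and VGLL3 had 1 each.

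**Figure D2:**
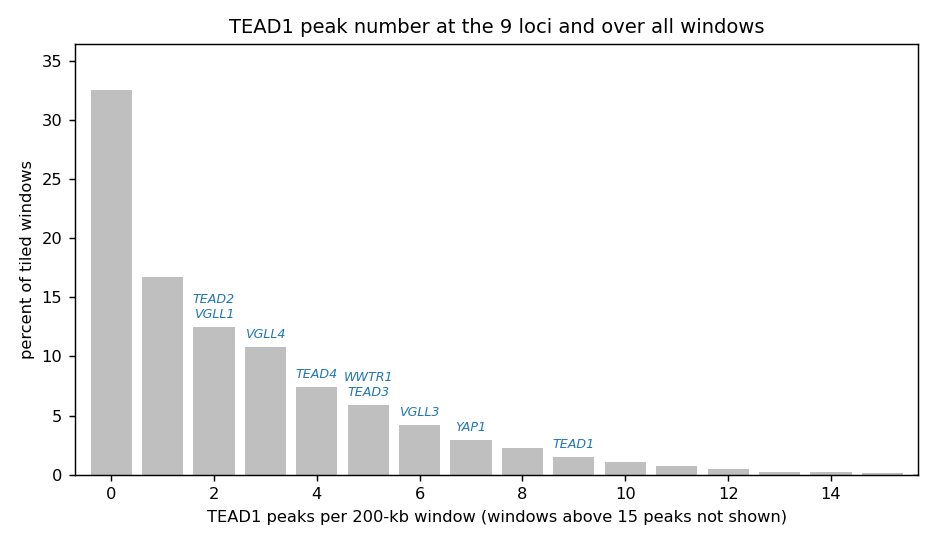
Percent of 15156 tiled windows of 200 kb (grey bars) by the number of TEAD1 peaks they hold, with each gene's name above the bar of its own count within 100 kb of its start. TEAD1, with 9 peaks, and YAP1, with 7, are in the right-hand tail, and TEAD2 and VGLL1 are at the median of 2.

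By median score percentile the peaks at these loci were near the middle of their lists. The score is the authors' own value per peak, on a scale that is not stated, and is therefore given with its percentile within the list. The TEAD1 peaks had a median percentile of 49.4 (range 0.2 to 98.0), against 50 for the list, and 7 of 43 were in the highest score decile of the list, which holds 10.0% of all peaks. The TEAD4 peaks had a median percentile of 56.4 (range 7.9 to 99.7), and 4 of 24 were in the highest decile. These medians depended on single loci. Without the TEAD1 locus they were 59.5 for TEAD1 and 54.7 for TEAD4, and without the YAP1 locus 54.2 and 48.6. TEAD4 was present at 18 of the 43 TEAD1 peaks (41.9%, exact 95% interval 27.0 to 57.9%), against 30.6% of all TEAD1 peaks, a share inside the interval. HA-YAP5SA was present at 2 of 43 (4.65%, 0.568 to 15.8%), against 2.06% of all TEAD1 peaks, also inside it. Intervals cover counting error over peaks only, and peaks of 1 library are not replicates.

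Joined across lists, the 69 peaks formed 48 separate sites. TEAD1 alone made up 25 of them, TEAD1 with TEAD4 made up 16, TEAD4 alone 5, and TEAD1, TEAD4 and HA-YAP5SA together 2. Both HA-YAP5SA peaks overlapped TEAD1 and TEAD4, as did 95.2% and 92.4% of all HA-YAP5SA peaks with each factor, and 2 of the 24 TEAD4 peaks carried HA-YAP5SA, against 6.28% of all TEAD4 peaks.

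At the start of TEAD4, the family member known for its role in the trophectoderm of the mouse embryo, peaks of 3 lists coincided and each ranked near the top of its list. Its TEAD4 peak (chromosome 12, 3068038 to 3069025) had a score of 1446, rank 40 of 12188 and percentile 99.7. The TEAD1 peak over it (3068071 to 3069033) had a score of 956 and percentile 95.8. The HA-YAP5SA peak (3068176 to 3068988) had a score of 481, rank 21 of 847 and percentile 97.6. All 3 peaks covered the gene start, and the HA-YAP5SA peak lay wholly inside both TEAD peaks, its centre 30 bp from the TEAD1 centre and 50.5 bp from the TEAD4 centre. The other peaks of the TEAD4 locus were below the median of their lists. A TEAD1 peak lay 14.8 kb upstream (score 95.8, percentile 13.5) and another 87.5 kb on the transcribed side (score 112, percentile 24.3). A shared site 96.3 kb on the transcribed side had a TEAD1 score of 169.9 (percentile 47.8) and a TEAD4 score of 120 (percentile 31.5). A TEAD4 peak without TEAD1 was 68.7 kb upstream (score 102, percentile 20.0), on the side of its neighbour TULP3.

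The start of TEAD1, the broadly expressed member of the family, was the other start with HA-YAP5SA. The HA-YAP5SA peak (chromosome 11, 12695946 to 12696310) had a score of 135, rank 319 of 847 and percentile 62.5. The TEAD4 peak there (12695729 to 12696233) had a score of 556 and percentile 93.7, and the TEAD1 peak (12695635 to 12696286) a score of 388 and percentile 79.4. HA-YAP5SA thus lay on both TEADs at this start too, but its peak was in the middle of the HA-YAP5SA list and its centre was shifted 147 bp from the TEAD4 centre, on the transcribed side. The highest TEAD1 score of the locus was not at the start but 49.5 kb on the transcribed side (12744802 to 12746204, score 688, percentile 91.5), where the TEAD4 peak had a score of 100.1 (percentile 18.0) and no HA-YAP5SA peak was called. A further shared site lay at 95.8 kb, with a TEAD1 score of 449 (percentile 83.0) and a TEAD4 score of 285 (percentile 77.1). The other 6 TEAD1 peaks of the locus had no TEAD4 peak and were all below the median of the TEAD1 list.

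At the start of VGLL1, which encodes a TEAD cofactor, the TEAD1 peak was centred 2.5 bp from the start (chromosome X, 135613992 to 135614625, score 520, percentile 86.3). The TEAD4 peak (135614142 to 135614347) was much lower in its own list, with a score of 111 and percentile 25.9. The only other peak at VGLL1 was a TEAD1 peak 81.5 kb upstream (score 222, percentile 60.1). The nearest HA-YAP5SA peak was 318 kb upstream.

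The start of YAP1 had TEAD1 and TEAD4 but no HA-YAP5SA. The TEAD1 peak (chromosome 11, 101980667 to 101981250) had a score of 175 and percentile 49.4, and the TEAD4 peak (101980757 to 101981213) had a score of 224 and percentile 66.8. This was the lowest TEAD1 percentile among the 4 covered starts.

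**Figure D3:**
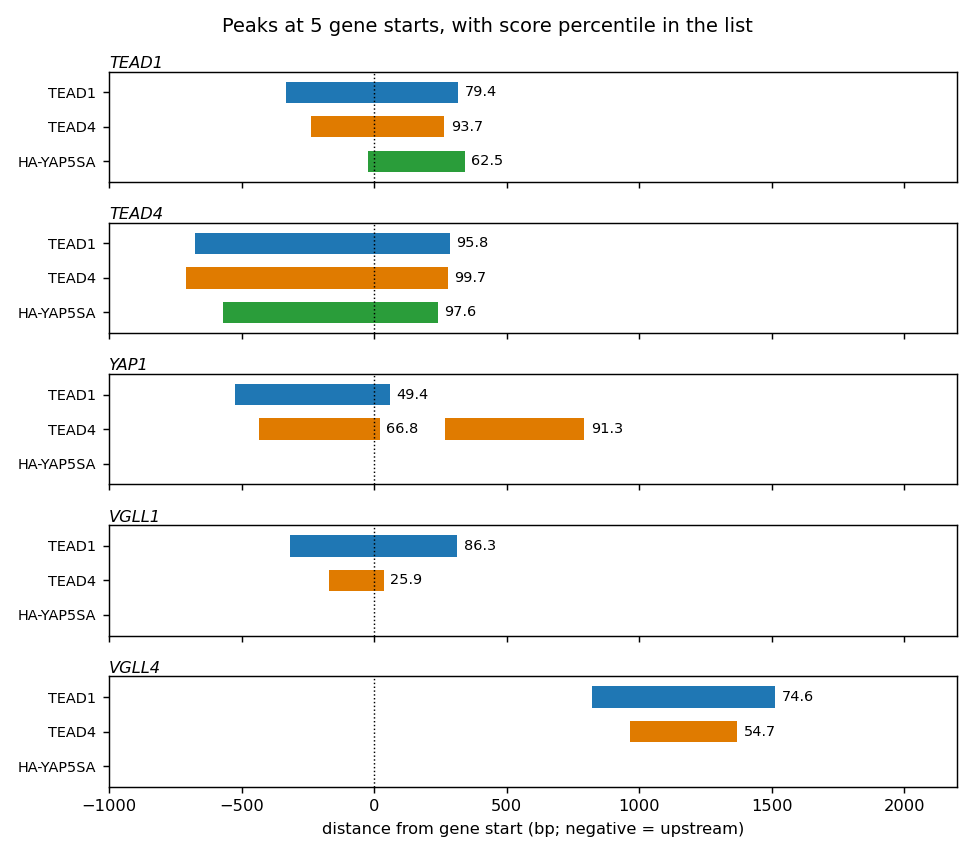
Extent of each peak of TEAD1, TEAD4 and HA-YAP5SA around 5 gene starts, in bp from the start (dotted line), negative upstream, with the percentile of the peak's score in its list beside the bar. Peaks of all 3 lists cover the starts of TEAD1 and TEAD4; at YAP1 a second TEAD4 peak, at percentile 91.3, lies beside the TEAD1 peak; at VGLL4 no peak covers the start.

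The TEAD1 and TEAD4 lists ranked the covered starts differently. At 3 of the 4 covered starts (TEAD4, TEAD1 and YAP1) the TEAD4 peak had the higher percentile in its list, by 3.9, 14.3 and 17.4 points, while at VGLL1 it was 60.4 points lower. The TEAD4 peaks were also set against TEAD1 peaks of the same score decile, taking the highest overlapping TEAD4 percentile of each. The first 3 were above the upper quartile (92.2, 54.2 and 35.7) and VGLL1 was below the lower quartile (34.2). On this measure the 15 pairs elsewhere at the 9 loci were spread too, with 6 above the upper quartile of their decile and 5 below the lower. Those 5 include the lower-scoring TEAD4 peak of the TEAD3 site at 95.8 kb (percentile 58.1), which is not the highest on its TEAD1 peak. In direct percentiles, at the other sites of the 9 loci the TEAD4 percentile was the higher in 1 of 15 overlapping pairs and the lower in 14. Over all 11841 overlapping pairs of the lists it was the higher in 6.67%. The single pair away from a start was at YAP1, 51.8 kb on the transcribed side, where the peaks shared 60 bp and both were near the bottom of their lists (TEAD1 percentile 1.8, TEAD4 percentile 7.9). Whether gene starts in general differ in this way was not tested.

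**Figure D4:**
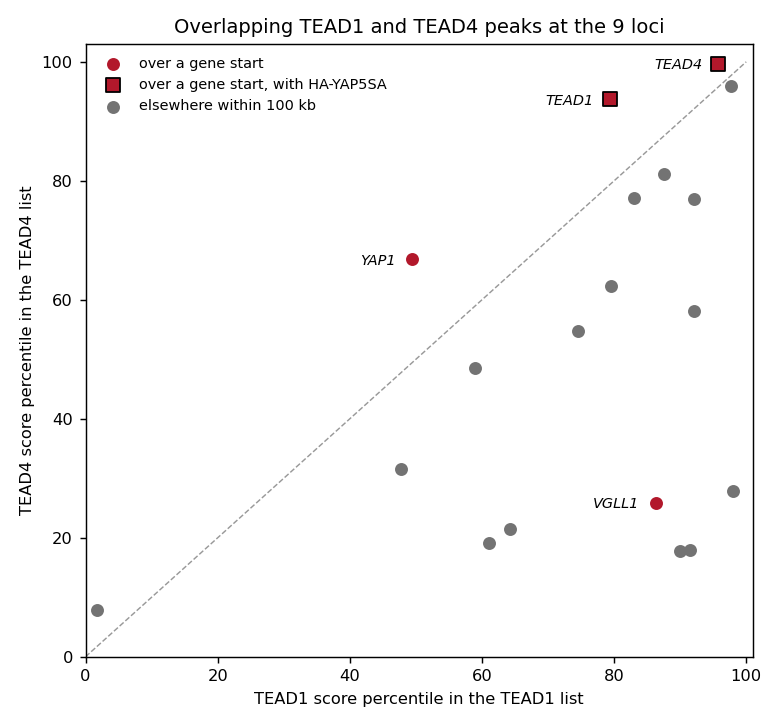
Percentile of the TEAD4 score in the TEAD4 list against that of the TEAD1 score in the TEAD1 list for the 19 overlapping pairs of the 9 loci; red points cover a gene start, squares carry HA-YAP5SA, grey points are elsewhere, and the dashed line marks equal percentiles. The starts of TEAD4, TEAD1 and YAP1 are above the line, and VGLL1 and 14 of the 15 other pairs are below it.

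Strong TEAD1 sites away from the starts differed in their TEAD4 peaks. In the highest decile of TEAD1 scores, the highest overlapping TEAD4 peak of each TEAD1 peak had a median percentile of 83.1 (interquartile range 69.3 to 92.2) over the whole list. At WWTR1, 79.2 kb upstream of the start, the TEAD1 peak had the highest score of all 43 (chromosome 3, 149453853 to 149454576, score 1265, percentile 98.0), with a TEAD4 peak of score 115 and percentile 27.8. At YAP1, 60.8 kb on the transcribed side, a TEAD1 peak of score 630 (percentile 90.0) had a TEAD4 peak of score 100.0 (percentile 17.8). With the TEAD1 site at 49.5 kb described above, these 3 were well under the interquartile range of their decile. The TEAD3 site 95.8 kb on the transcribed side (TEAD1 percentile 92.1) had a TEAD4 peak within that range (percentile 77.0) and another below it (percentile 58.1). The site 99.3 kb upstream of YAP1 was high in both lists (chromosome 11, 101881612 to 101882213, TEAD1 score 1201, percentile 97.7, and TEAD4 score 669, percentile 96.0).

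Of the 7 TEAD1 peaks in the highest decile, 1 carried HA-YAP5SA, at the TEAD4 start. This is close to the background of that decile, in which 17.3% of all TEAD1 peaks carried it. The TEAD1 peak at the start of TEAD1, which carried HA-YAP5SA, was in the eighth decile, where 0.655% of all TEAD1 peaks did. It was 1 of 5 peaks of that decile at these loci and was named because it carried HA-YAP5SA, so that share is no measure of how unusual it is. Of the 41 TEAD1 peaks without HA-YAP5SA, 10 had higher scores than that one.

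TEAD4 peaks without TEAD1 were concentrated at YAP1. Of the 24 TEAD4 peaks, 19 overlapped TEAD1 (79.2%, interval 57.8 to 92.9%), against 97.1% of all TEAD4 peaks, and 5 did not, against 2.90% of all. The 5 lay at 3 of the 9 loci, and 3 of them were among the 7 TEAD4 peaks of YAP1. Of the tiled windows 2.12% held such a peak. Only 38.9% of the windows held any TEAD4 peak, while all 9 loci did, so the windows are a loose background here. Without the YAP1 locus, 15 of 17 TEAD4 peaks overlapped TEAD1 (88.2%). The first (101981457 to 101981984) was centred 528.5 bp from the start on the transcribed side, 206 bp beyond the end of the TEAD1 peak over the start, and had a score of 484 (percentile 91.3), rank 2 of the 353 TEAD4 peaks without TEAD1. The second (101984854 to 101985128, 3.80 kb) had a score of 214, rank 9. The third (102076586 to 102076833, 95.5 kb) had a score of 217, rank 8. All 3 were above the upper quartile of the scores of such peaks, 110.9, whose median was 95.6.

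The same pattern went on past the edge of the 100-kb window, which was examined after these values had been seen. Within 200 kb of the YAP1 start there were 6 TEAD4 peaks without TEAD1, all on the transcribed side, 155 to 528 bp wide, against 1 each at TEAD2 and TEAD4 and none at the other 6 loci. The added peaks were 113, 117 and 119 kb from the start, with scores of 122, 148 and 340. Of the 15156 tiled windows, 2 held 3 or more TEAD4 peaks without TEAD1 (0.0132%), and the one with 4 (chromosome 11, 102000001 to 102200000) held 4 of these peaks. The peak at 119 kb (102100323 to 102100745) was overlapped by the HA-YAP5SA peak nearest to YAP1 (102100430 to 102100723, score 106, rank 499 of 847). That is 1 of only 2 HA-YAP5SA peaks of 847 that lay on TEAD4 without TEAD1. HA-YAP5SA is itself an added YAP sequence, and in cells that carry it, reads from the added copy would align to YAP1. The labels do not say whether the cells of the TEAD4 library carried it. Whether such reads are part of the peaks in YAP1, and whether these peaks fall on its exons, was not tested. No YAP or TAZ peak lay within 200 kb.

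**Figure D5:**
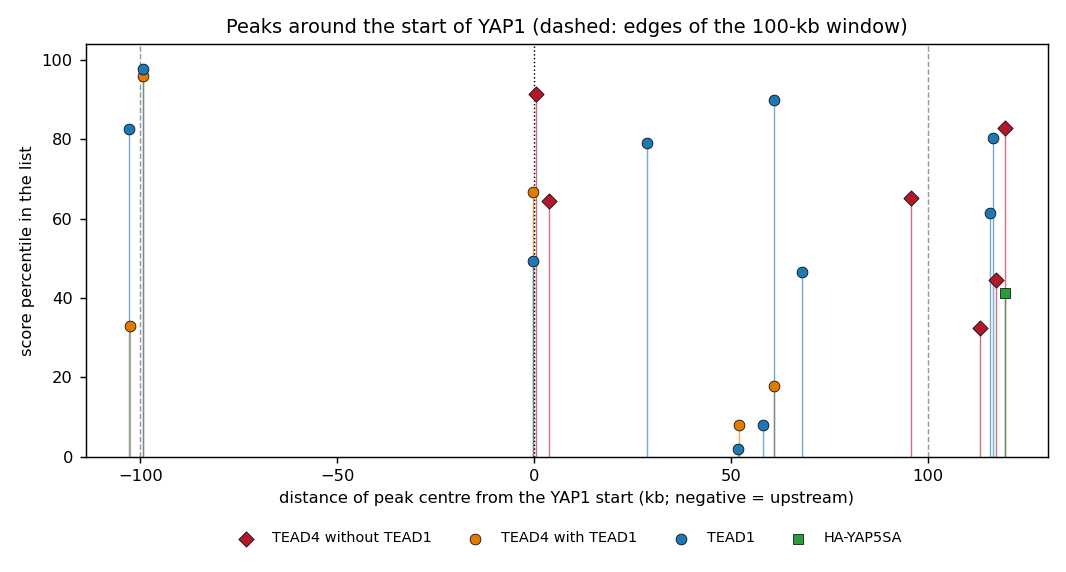
Peaks around the YAP1 start by distance in kb, negative upstream, and by the percentile of their score in their list; red diamonds are TEAD4 peaks without TEAD1, orange circles TEAD4 peaks with TEAD1, blue circles TEAD1 and the green square HA-YAP5SA. All 6 red diamonds are on the transcribed side, 1 of them at the HA-YAP5SA peak 119 kb from the start.

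The other 5 genes had no peak over the start used. Only 1 start per gene was examined, while the promoter table lists 2 promoters for TEAD2, 2 for WWTR1 and 5 for VGLL4. VGLL4 came closest, with a TEAD1 peak 1.17 kb on the transcribed side (chromosome 3, 11760708 to 11761399, score 329, percentile 74.6) and a TEAD4 peak at the same place (11760850 to 11761256, score 176, percentile 54.7). A second shared site lay 49.96 kb upstream of VGLL4 and scored higher (TEAD1 552, percentile 87.5, and TEAD4 323, percentile 81.1). Both VGLL4 sites with TEAD4 were above the median of both lists, and the third TEAD1 peak, at 29.5 kb on the transcribed side, was near it (score 175, percentile 49.4).

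VGLL3, another TEAD cofactor of the vestigial-like family, had 3 TEAD1 peaks within 6 kb of its start and no TEAD4 peak among them. They lay 2.69 kb on the transcribed side (score 280.1, percentile 69.3) and 4.70 and 5.62 kb upstream (scores 240 and 123, percentiles 63.2 and 30.2). Most TEAD1 peaks of such scores lack TEAD4. In the whole list it was present at 30.6% of the seventh TEAD1 decile and 7.49% of the fourth, the deciles of these peaks. The highest TEAD1 peak of VGLL3 lay 29.7 kb on the transcribed side (87010237 to 87010839, score 736, percentile 92.6). It was the 1 member of the highest TEAD1 decile with no TEAD4 peak, while TEAD4 was present at 97.0% of that decile in the whole list. The neighbouring TEAD1 peak at 32.4 kb had the only TEAD4 peak of the locus (TEAD1 score 246, TEAD4 score 105).

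TEAD3 and TEAD2, the other TEAD genes, had no peak of any list within 10 kb of their starts. At TEAD3 the nearest shared site was 11.5 kb on the transcribed side (chromosome 6, TEAD1 35452976 to 35453685, score 216, percentile 58.9, and TEAD4 score 158, percentile 48.5). The highest TEAD1 peak of the TEAD3 locus lay at 95.8 kb, on the side of the neighbour RPL10A (35368370 to 35369813, score 715, percentile 92.1). It was 1444 bp wide, the widest of the 43, with 2 TEAD4 peaks under it (scores 284 and 187). Whether it lies in TEAD3 or past its end was not examined. At TEAD2 all 3 peaks were weak: TEAD1 scored 102 at 37.7 kb upstream and 80.2 at 34.7 kb on the transcribed side, and TEAD4 scored 91.3 at 80.7 kb upstream. TEAD2 was therefore the one locus of the 9 with no peak above the lowest quartile of its list.

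At WWTR1 no peak lay near the start used, which was given as a round position, so distances there are approximate. The nearest TEAD1 peak was 10.9 kb on the transcribed side (score 117, percentile 27.1), without TEAD4. Besides the strong site 79.2 kb upstream, a TEAD1 peak at 77.0 kb on the transcribed side scored 352 (percentile 76.7), and a shared site at 81.5 kb scored 227 for TEAD1 and 102 for TEAD4. At the single start used for each, YAP1 and WWTR1, the genes of the paralogous coactivators, thus differed. TEAD1 and TEAD4 lay over the start of YAP1, and neither lay within 10 kb of the WWTR1 start used. Other starts of these genes were not examined.

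The 100-kb limit cut close to some peaks. Just inside it were TEAD1 peaks 99.7 kb upstream of TEAD3 (score 153) and 99.3 kb upstream of YAP1 (score 1201), and just outside it were TEAD1 peaks 100.6 kb upstream of TEAD1 (score 155) and 102.8 kb upstream of YAP1 (score 437).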

How the data were processed

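HuCCT1 chromatin was cross-linked, sonicated to short fragments and precipitated with the antibody of each library, per the labels' protocols. Alignment used Bowtie2 (no version stated) and the build was hg19, per the submitters' processing notes. The names of the peaks start with MACS, per the deposited files; its version, threshold and control are not given in the sources. The score of each peak is the authors' deposited value, on an unstated scale, so it was compared only within a list, as a rank or percentile. In the 3 lists without a header line (YAP, TAZ and HA-YAP5SA) starts were read as 0-based and raised by 1. All lists come from 1 library each, without pooling.

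The 9 gene starts and the 100-kb window came from the definition of the loci, and the members and lists were chosen with earlier results of these data known. An overlap of 1 bp or more made a pair of peaks shared. Distances run from the peak centre to the gene start and are signed by the gene's strand. No test was run: counts, shares and percentiles are set beside those of the whole list or of 200-kb windows tiled over chromosomes 1 to 22 and X. Shares carry exact Clopper-Pearson 95% intervals, for counting error only. Per locus, the peaks named were the highest TEAD1 peak, all HA-YAP5SA, YAP and TAZ peaks, TEAD4 peaks without TEAD1 and the peak nearest the start; other peaks named were chosen after their values were seen. Promoter sequences and gene neighbours came from RefSeq tables on GRCh38.p14, whose coordinates were not compared with the hg19 peaks. A protein sequence of YAP1, planned, was not used here. Alternatives were windows of 50 and 200 kb, membership by any base, peaks whose score reached their list's median, an overlap of 50% of the shorter peak, centres within 500 bp, and leaving out a locus. The overlap code was tested on simulated data with planted peaks. Software was SciPy 1.17.1, pandas 2.3.3, NumPy 2.4.6 and matplotlib 3.10.9 under Python 3.11.15.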

Additional observations from a re-analysis of the deposited data

How the results depend on the processing

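Of 87 values recomputed under the alternatives, 78 stayed within 1.5 times the count given, or within the interval of the share or median, and 9 did not. The intervals of the medians are not printed here. The 78 include all YAP and TAZ values, which were 0 throughout and could not fall under a stricter setting, so 78 overstates the stability. TEAD1 peaks numbered 24 within 50 kb, 84 within 200 kb and 21 at or above the median score of the list, and TEAD4 peaks 11, 41 and 13, which follows from the wider or narrower window and the fewer peaks. At or above the median score, 5 loci had a TEAD4 peak, and the median percentiles were 79.6 for TEAD1 and 77.0 for TEAD4, since only the upper part of each list was kept. Peak counts for YAP and TAZ were 0 in every alternative run, and those for HA-YAP5SA were 2, or 3 within 200 kb. The share of TEAD1 peaks with HA-YAP5SA was 8.33% within 50 kb, 2.38% within 200 kb, 2.94% without the TEAD1 locus and 9.52% at or above the median score, against 4.65%, moves of up to about 2 times inside a wide interval. A TEAD1 peak over the start was counted at 4 loci, at 3 with peaks at or above the median score (YAP1 was lost) and at 6 with centres within 5 kb. The share of TEAD4 peaks with TEAD1 ranged from 69.2 to 88.2%. Leaving out the YAP1 locus was chosen after seeing the data. No paired analysis was possible because each list comes from 1 library. Depth is unknown and limits what a missing peak can show.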
